A study of Mus musculus with 5 samples.

Results

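The NF-kB subunits and the IkB proteins that bind them were followed in mouse cells that the labels give as sorted polymorphonuclear myeloid-derived suppressor cells (PMN-MDSCs), neutrophil-lineage cells known for restraining T cells in tumor-bearing hosts. The members are 10 genes chosen by symbol out of 55276 rows, namely the 5 subunit genes Nfkb1, Nfkb2, Rel, Rela and Relb and the 5 IkB genes Nfkbia, Nfkbie, Nfkbid, Nfkbiz and Bcl3. The study has 2 tumor libraries, numbered 2 and 3, and 3 lung libraries, numbered 1 to 3, all labelled wild type, with RNA from at least 2000000 sorted cells. The labels leave out the tumor model, the strain and age of the mice, the sort markers and whether each library is a separate animal, so a p-value here covers only library-to-library spread, part of which may be technical. Values are TPM, shares of a library's transcripts that are corrected for transcript length and sum to 1000000 per library. Read counts cannot be recovered from TPM, so the depth of single genes is unknown; a sequencing depth of 20000000 paired reads is stated for every library.

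NF-kB factors are dimers of Rel-family proteins. Rela, Rel and Relb carry a domain that activates transcription, while Nfkb1 and Nfkb2 encode precursors that are processed to p50 and p52, which lack one. Classical IkB proteins such as the product of Nfkbia hold dimers in the cytoplasm until the IkB kinase marks them for breakdown. Nuclear IkB proteins, such as those encoded by Nfkbid, Nfkbiz and Bcl3, act on dimers already on DNA. Several IkB genes are themselves NF-kB targets, and in neutrophils the pathway drives cytokine genes and survival.

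The tumor libraries differed from the lung libraries in markers of whole cell types, and these values stand beside every result that follows. Ptprc, the pan-leukocyte gene for CD45, was at 18.5 and 75.3 TPM in tumor libraries 2 and 3 and between 842 and 959 TPM in lung. A list of 40 pan-leukocyte genes summed to 1203 and 3172 TPM in tumor and to between 22816 and 24411 TPM in lung. Of those genes 39 were called lower and 0 higher (Ptpn7 was the one not called), with a median difference of -3.51, and none was at 0 in both tumor libraries. The 20 neutrophil markers summed to 1282 and 4364 TPM in tumor and to between 41339 and 67621 TPM in lung. All 20 were called lower, including the alarmin gene S100a8, at 274 and 1103 TPM in tumor and between 10842 and 18258 TPM in lung. The 20 epithelial markers summed to 6971 and 7054 TPM in tumor and to between 139 and 191 TPM in lung. Of 19 tested epithelial markers, 17 were called higher, and Epcam, an epithelial adhesion protein gene, stood at 257 and 248 TPM in tumor and between 2.10 and 5.44 TPM in lung. Fibroblast markers summed to 1211 and 227 TPM in tumor and to between 21.3 and 30.9 TPM in lung. Macrophage markers summed to 1157 and 2720 TPM in tumor and to between 1113 and 1248 TPM in lung, a sum whose genes went both ways. Apoe, which macrophages share with other cell types, made up 696 and 1643 TPM of it in tumor and 399 to 470.0 TPM in lung. Of the 10 macrophage markers 4 were called higher (Apoe and the complement genes C1qa, C1qb and C1qc, the last 3 by 17.7-fold to 23.4-fold in mean TPM) and 3 lower (Csf1r by 4.41-fold, Adgre1 by 3.16-fold and Cd68 by 2.37-fold). The 10 endothelial markers summed to 20.7 and 37.4 TPM in tumor and to between 230 and 460.0 TPM in lung, and all 10 were called lower. The part of these shifts in the member values was not tested, and in bulk libraries fewer cells of a type and less RNA per cell cannot be told apart.

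Transcripts of all IkB members were lower in tumor, while 3 of the 5 subunits stayed within a 1.5-fold limit. Of the 10 members, all passed the filter of a mean of 1 TPM, 7 were called lower and 0 higher (limma on log2(TPM + 1), Benjamini-Hochberg adjusted p under 0.05 and at least 1.5-fold). Over all 16387 tested genes 27.0% were called lower and 31.6% higher, 58.6% in all. Without tumor replicate 2 those shares were 17.7% lower and 20.3% higher, and 6 members were called lower and 0 higher. At an unadjusted limma p under 0.05, 9 members were lower and 0 higher. The share of all tested genes at that limit was not computed, so this count does not set the members apart. Tumor values lay entirely below lung values for all 10 members, as for 35.7% of tested genes, and entirely above them for 0 members, as against 39.9% of tested genes. The median difference of the members was -1.52, against 0.018 over all tested genes. In the authors' deposited table none of the 10 members had an adjusted p under 0.05 (0.0727 to 0.384), although 9 had an unadjusted p under 0.05. An adjusted p under 0.05 was held by 0.638% of the 34930 rows of that table with an adjusted p. The share of its rows with an unadjusted p under 0.05 was not computed.

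**Figure D1:**
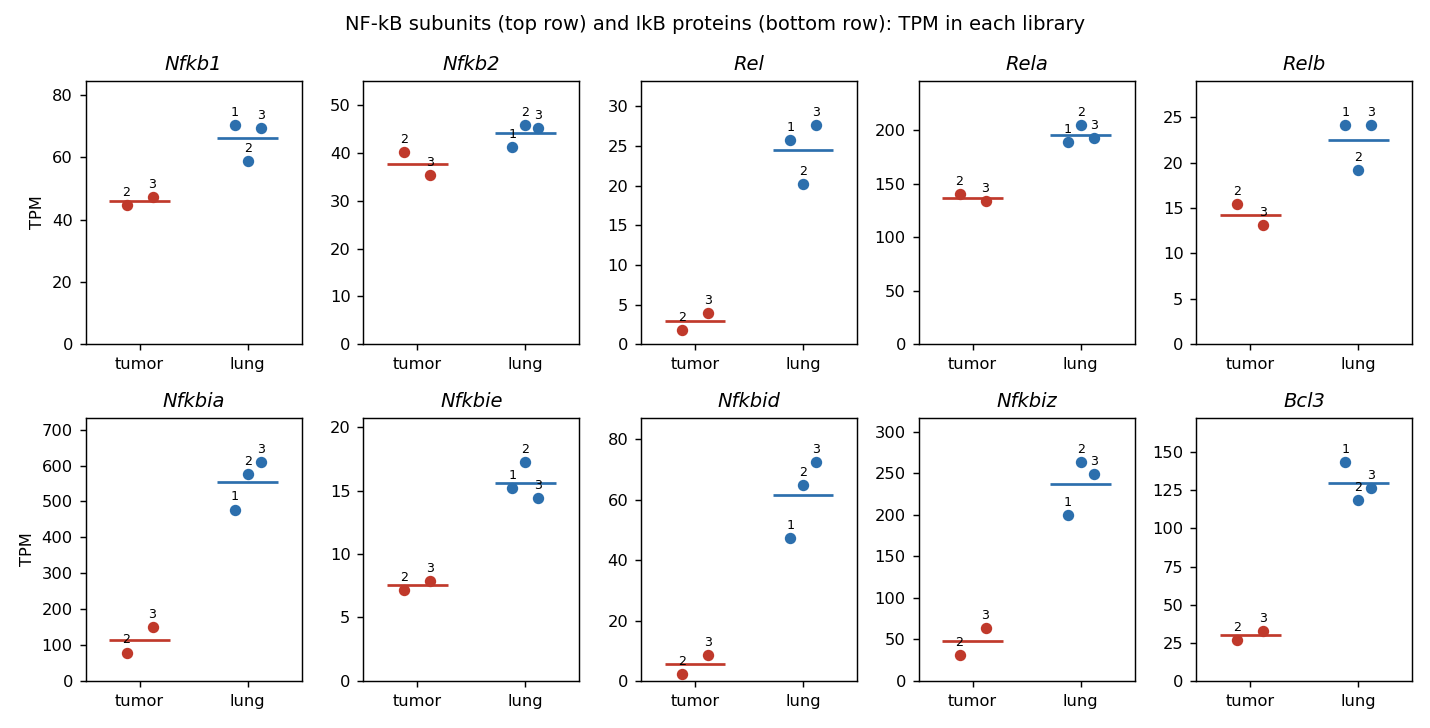
TPM of each subunit gene (top row) and IkB gene (bottom row) in the tumor libraries (red, left) and lung libraries (blue, right), on linear axes that start at 0. Points are libraries marked with their number and bars are group means; every tumor point lies below every lung point, by a wide gap for Rel, Nfkbia, Nfkbid, Nfkbiz and Bcl3 and a narrow one for Nfkb2.

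Rela, the main activating subunit of the canonical pathway, was the most abundant subunit in every library. It stood at 139.9 and 134 TPM in tumor libraries 2 and 3, against 189, 205 and 192 TPM in lung libraries 1 to 3. The groups did not overlap, but the difference of -0.51 ± 0.13 (SE) was under the 1.5-fold limit (limma adjusted p = 0.0242), so Rela was not called. Nfkb1, which encodes the p105 precursor of p50, was at 44.6 and 47.3 TPM in tumor and at 70.4, 58.8 and 69.5 TPM in lung. Its difference was of the same size (-0.51 ± 0.16, limma adjusted p = 0.0373) and was likewise under the limit. Without lung replicate 2, the lowest lung value, Nfkb1 was called lower at -0.60 (limma adjusted p = 0.0421). After rescaling to the median of ratios, which moved the median of all genes to -0.12, both Rela and Nfkb1 were called lower at -0.69 (limma adjusted p = 0.0154 and 0.0109). Other settings went the other way. With mitochondrial genes removed the differences shrank to -0.38 for Rela and -0.39 for Nfkb1. There, and without lung replicate 1 or 3, neither gene had a limma adjusted p under 0.05. Rela also had none under 0.05 without lung replicate 2. Nfkb2, which encodes the p100 precursor of p52 in the noncanonical pathway, was at 40.3 and 35.3 TPM in tumor and at 41.2, 45.9 and 45.2 TPM in lung. Tumor replicate 2 and lung replicate 1 nearly touched, and the difference of -0.22 ± 0.15 did not pass (limma adjusted p = 0.257). Nfkb2 shares exon bases with the opposite-strand gene Psd and with a noncoding transcript, and without a stated strand such reads cannot be told apart.

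Rel, the c-Rel subunit known for its role in blood cells, fell the most of the subunits. It was at 1.84 and 3.94 TPM in tumor, against 25.8, 20.1 and 27.6 TPM in lung, and every lung value exceeded every tumor value by a factor of 5 or more. The ratio of mean TPM was 8.49-fold lower in tumor, with a difference of -2.76 ± 0.30 (limma adjusted p = 0.00201), and 13.3-fold lower without tumor replicate 3. Relb, the partner of p52, was at 15.4 and 13.1 TPM in tumor and at 24.1, 19.2 and 24.2 TPM in lung. It was called lower at -0.62 ± 0.19 (limma adjusted p = 0.0366), close to the limit on size. That call ended without lung replicate 1 or 3 and without tumor replicate 2 or 3, with limma adjusted p-values of 0.0942, 0.0926, 0.0786 and 0.1399. It also ended with no filter on low values, with mitochondrial genes removed and without moderation (limma adjusted p from 0.0553 to 0.0577).

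Nfkbia, the gene of the feedback inhibitor IkB alpha, was the most abundant member in lung. It was at 79.1 and 149 TPM in tumor, against 478, 576 and 611 TPM in lung. The groups were far apart, and the tumor libraries also differed from each other. Mean TPM was 4.86-fold lower in tumor, with a difference of -2.33 ± 0.31 (limma adjusted p = 0.00315). Nfkbie, which encodes IkB epsilon, another cytoplasmic inhibitor, was at 7.19 and 7.85 TPM in tumor and at 15.2, 17.3 and 14.4 TPM in lung. Both groups were tight, and the 2.08-fold lower mean in tumor passed at -0.96 ± 0.17 (limma adjusted p = 0.00655). Nfkbib, which encodes IkB beta and is not among the 10 members, was at 19.9 and 20.1 TPM in tumor and at 21.7, 19.9 and 24.3 TPM in lung. Its groups overlapped, and the difference was -0.12 ± 0.16 (limma adjusted p = 0.525). With mitochondrially encoded genes removed that difference was 0.0016.

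The 3 nuclear IkB genes among the members were called lower. Nfkbid, which encodes IkBNS, was at 2.37 and 8.67 TPM in tumor and at 47.2, 64.9 and 72.7 TPM in lung. Its mean was 11.2-fold lower in tumor, the largest fold among the members, with a difference of -3.43 ± 0.49 (limma adjusted p = 0.00388). The tumor libraries lie far apart for Nfkbid: the fold was 7.10 without tumor replicate 2 (difference -2.67) and 26.0 without tumor replicate 3 (difference -4.19), and it was called lower in both cases. Nfkbiz, which encodes IkB zeta, a cofactor for secondary response genes such as Il6 and Lcn2, was at 31.8 and 63.2 TPM in tumor, against 199.8, 264 and 249 TPM in lung. All lung values lay above 3 times the higher tumor value, and the difference was -2.37 ± 0.33 (limma adjusted p = 0.00357). Bcl3, a partner of p50 and p52 homodimers, was at 26.9 and 33.0 TPM in tumor and at 144, 119 and 127 TPM in lung. Its tumor libraries were close to each other, and it had the smallest adjusted p of the members, with a difference of -2.08 ± 0.17 (limma adjusted p = 0.0013). Bcl3 shares exon bases with the antisense gene Gm16175, so its reads cannot be told apart from that gene's without a stated strand.

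Of the members with a listed promoter, all but Rela held the kB consensus, the 10-base motif that NF-kB dimers bind. The stretches with matches are shown because most of these genes are known targets of the pathway. Promoters were taken from RefSeq on GRCm38.p6, from 250 bases before to 50 after each listed start, and searched on both strands. In the GENCODE M21 annotation of GRCm38, Nfkbia lies on chromosome 12 from 55489410 to 55492647 (minus strand), Rel on chromosome 11 from 23736847 to 23770970 (minus strand) and Nfkbid on chromosome 7 from 30421732 to 30428746 (plus strand). Of the 10 members, 7 had an entry, with 11 starts, and 8 of the 11 promoters and 6 of the 7 genes held at least 1 match. Nfkb1, Relb and Nfkbiz had no entry. A match was held by 8.46% of all 32851 listed promoters and 9.55% of their 27025 genes. Capitals mark the matches, which overlap by all but 1 base in the first Nfkb2 stretch and in Rel.
Nfkbia, minus strand, chr12:55492648-55492701: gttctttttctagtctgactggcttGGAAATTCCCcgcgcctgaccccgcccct
Nfkbie, plus strand, chr17:45555569-45555628: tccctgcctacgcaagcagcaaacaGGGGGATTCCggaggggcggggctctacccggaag
Nfkbid, plus strand, chr7:30422156-30422259: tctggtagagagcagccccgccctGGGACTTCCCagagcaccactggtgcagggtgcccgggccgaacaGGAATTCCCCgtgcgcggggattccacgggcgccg
Bcl3, minus strand, chr7:19822734-19822763: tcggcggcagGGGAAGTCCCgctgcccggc
Rel, minus strand, chr11:23771026-23771086: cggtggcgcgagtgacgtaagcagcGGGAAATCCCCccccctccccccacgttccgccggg
Nfkb2 first start, plus strand, chr19:46304673-46304736: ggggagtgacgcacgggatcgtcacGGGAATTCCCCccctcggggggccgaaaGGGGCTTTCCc
Nfkb2 downstream start, plus strand, chr19:46305680-46305739: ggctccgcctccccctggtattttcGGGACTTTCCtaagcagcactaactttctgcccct
The 10-base Bcl3 match begins 2 bases past the listed start and the Nfkbia match 29 bases before it. A further Nfkb2 start, whose stretch is not shown, held matches at -236 and 10 bases from it. The latter match covers the same bases as that of the downstream start shown, so it counts in both promoters. No match was found in the Rela window or at the other 2 Nfkbid starts, which says only that these letters are not in those windows. The Nfkbid window from 30421481 to 30421780, without a match, covers the annotated gene start given above. Genes with a match included Rel and Nfkbid, which fell by the most, and Nfkb2, which was not called.

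Because TPM is a share of each library, the members were also set against each other within libraries, where the scaling of a library cancels. The mix of cell types does not cancel there, and its part in the ratios and shares below was not tested. The 5 subunits together summed to 242 and 233 TPM in tumor and to 350.4, 349 and 359 TPM in lung. The 5 IkB members summed to 147 and 262 TPM in tumor and to 884, 1041 and 1074 TPM in lung. IkB transcripts thus outnumbered subunit transcripts in every lung library, and in tumor library 3 alone among the tumor libraries.

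Classical IkB transcripts (Nfkbia and Nfkbie) per subunit transcript were 0.357 and 0.674 in tumor libraries 2 and 3, against 1.41, 1.70 and 1.74 in lung libraries 1 to 3. The difference in the log2 ratio was -1.72 (SD 0.65 in tumor and 0.17 in lung), and the groups did not overlap. Nuclear IkB transcripts (Nfkbid, Nfkbiz and Bcl3) per subunit transcript were 0.252 and 0.450 in tumor, against 1.12, 1.28 and 1.25 in lung. Their difference in the log2 ratio was -1.85 (SD 0.59 in tumor and 0.11 in lung). Among single genes the log2 ratio to the subunit sum differed by -3.17 for Nfkbid, -1.83 for Nfkbiz, -1.77 for Nfkbia, -1.55 for Bcl3 and -0.48 for Nfkbie. Nfkbib went the other way, at 0.0822 and 0.0862 per subunit transcript in tumor, against 0.0618, 0.0569 and 0.0678 in lung. Each of these 8 ratios gave a two-sided exact permutation p of 0.1, the smallest that 10 splits allow (0.1 after Benjamini-Hochberg adjustment over the 8), so none could pass 0.05.

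Within the subunit pool, Rel and Nfkb2 were the members whose shares did not overlap between the tissues. Rel held 0.759% and 1.69% of subunit transcripts in tumor, against 7.35%, 5.78% and 7.70% in lung. Nfkb2 held 16.6% and 15.1% in tumor and 11.8%, 13.2% and 12.6% in lung. Both gave a two-sided exact permutation p of 0.1, the smallest possible (0.25 adjusted over the 5 subunits). Rela held 57.8% and 57.3% in tumor and 53.9%, 58.7% and 53.6% in lung, Nfkb1 18.4% and 20.3% in tumor and 20.1%, 16.9% and 19.3% in lung, and Relb 6.38% and 5.61% in tumor and 6.89%, 5.50% and 6.73% in lung. The shares of these 3 overlapped between tissues (exact permutation p from 0.4 to 0.8).

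**Figure D2:**
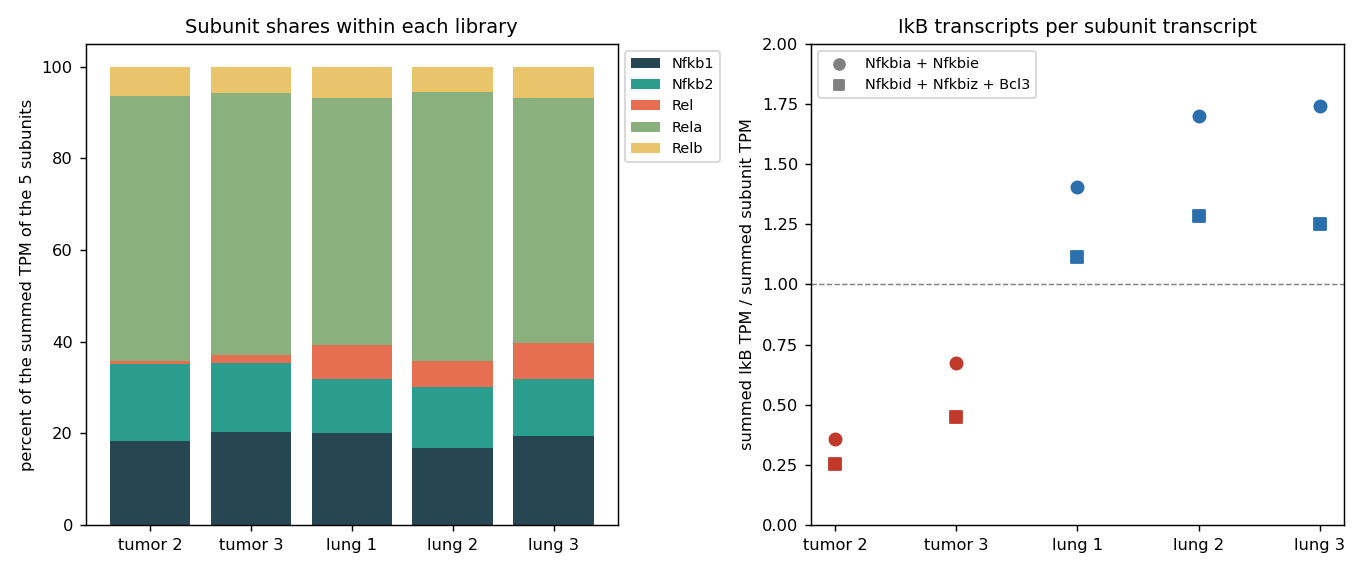
Left, percent of the summed TPM of the 5 subunits held by each, per library, with tumor libraries first; Rel shrinks to 0.759% and 1.69% in tumor while Rela stays above 53% everywhere. Right, summed TPM of classical IkB genes (circles) and nuclear IkB genes (squares) divided by that of the subunits, per library; all tumor points (red) lie below 1, marked by the dashed line, and all lung points (blue) above it.

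The order of levels within a library shifted with the IkB genes. In lung Nfkbia led, Nfkbiz and Rela came next with overlapping values, and Bcl3 followed. Nfkb1 and Nfkbid then overlapped, as did Rel and Relb, with Nfkb2 between those pairs and Nfkbie lowest. In tumor Rela and Nfkbia led with overlapping values. Nfkbiz, at 31.8 and 63.2 TPM, spanned Nfkb1 and Nfkb2 and overlapped Bcl3, which was lower than Nfkbiz in each tumor library. Nfkbid, at 2.37 and 8.67 TPM, overlapped both Nfkbie and Rel at the bottom of the order.

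Nfkbid, Rel, Nfkbiz and Nfkbia, the members with the largest falls, also differed the most between the tumor libraries. TPM in tumor library 3 relative to tumor library 2 was 3.66 for Nfkbid, 2.14 for Rel, 1.99 for Nfkbiz and 1.89 for Nfkbia. It was 1.23 for Bcl3, 1.09 for Nfkbie and 1.06 for Nfkb1, and 0.956, 0.876 and 0.847 for Rela, Nfkb2 and Relb. The same quotient was 4.07 for Ptprc, 3.40 for the summed neutrophil markers, 2.64 for the summed pan-leukocyte genes and 1.01 for the summed epithelial markers. It was 5.76 for the summed B cell markers, 2.35 for macrophage, 1.81 for endothelial, 0.805 for T cell and 0.188 for fibroblast markers, so the tumor libraries differed in several cell-type lists and in both directions. The part of these differences in the spread of the members was not tested.

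Relative to leukocyte transcripts the direction of the members turned. The pan-leukocyte median of -3.51 lay below the difference of every member, by 0.073 for Nfkbid, 0.75 for Rel, 1.14 for Nfkbiz, 1.17 for Nfkbia, 1.43 for Bcl3 and 2.55 to 3.29 for the other 5. When each library was centred on the 40 pan-leukocyte genes, which moved the median of all genes to 3.46, 0 members were called lower and 7 higher. In that setting 85.8% of all tested genes were called higher and 0.659% lower, so the turn was not particular to the members. Those not called were then Nfkbid at 0.0061, Rel at 0.68 and Nfkbiz at 1.07 (limma adjusted p = 0.993, 0.313 and 0.0662). Directions in the text are therefore those of shares of all transcripts in a library, for members and for the pathway genes below.

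**Figure D3:**
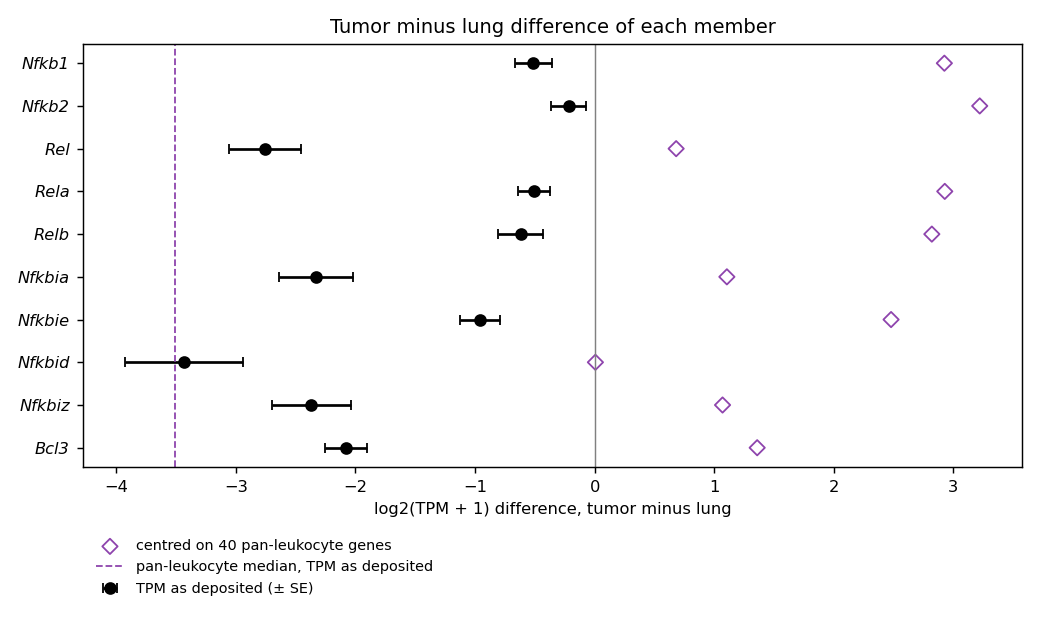
Difference in log2(TPM + 1), tumor minus lung, for each member (black points, ± SE from limma), with the pan-leukocyte median of -3.51 as a dashed line and the difference after centring each library on the pan-leukocyte genes as open diamonds. Black points lie left of 0 and diamonds at or right of 0, with Nfkbid at 0.0061.

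Upstream of the IkB proteins, several receptor-proximal adaptors fell and Tradd rose, while the genes of the kinase complex did not pass the test. The 3 genes of the IkB kinase complex, singled out after their values were seen, were not called. Chuk was at 20.7 and 22.0 TPM in tumor and at 24.8 to 34.4 TPM in lung (-0.48 ± 0.20, limma adjusted p = 0.089). It was called lower without lung replicate 1 (-0.61, limma adjusted p = 0.0453) and after rescaling to the median of ratios (-0.65, limma adjusted p = 0.0345). Ikbkb was at 53.1 and 44.5 TPM in tumor and at 49.1 to 67.6 TPM in lung (-0.24 ± 0.20), and Ikbkg at 17.5 and 20.5 TPM in tumor and at 23.1 to 25.9 TPM in lung (-0.33 ± 0.16). Of 28 tested genes of canonical kinases, adaptors and ubiquitin enzymes, 13 were called lower and 5 higher, with a median of -0.58. Card9, the adaptor of C-type lectin receptors, was at 3.35 and 6.43 TPM in tumor and at 63.8 to 79.0 TPM in lung (-3.63 ± 0.28, limma adjusted p = 0.0012). Myd88, the adaptor of Toll-like and interleukin-1 receptors, was at 31.9 and 57.2 TPM in tumor and at 284 to 416 TPM in lung (-2.93 ± 0.32). The kinase gene Irak4, which acts next to it, fell by 2.33, and Rnf31, which encodes the catalytic subunit of the linear ubiquitin ligase, fell by 1.91.

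The higher genes on that list were Tradd, Ube2n, Ube2v1, Btrc and Fbxw11. Tradd, an adaptor gene, was at 21.1 and 17.2 TPM in tumor and at 11.6 to 12.8 TPM in lung (0.63 ± 0.17, limma adjusted p = 0.0263). Btrc and Fbxw11 encode the beta-TrCP proteins, which recognise phosphorylated IkB for breakdown. Btrc was at 14.9 and 13.1 TPM in tumor and at 4.97 to 9.32 TPM in lung (0.91 ± 0.28, limma adjusted p = 0.0382). Its call ended when lung replicate 1 or 3 or either tumor replicate was left out (limma adjusted p from 0.0572 to 0.193), and likewise with no filter, after rescaling to the median of ratios and without moderation (0.0705 to 0.0942). Fbxw11 was at 60.4 and 53.2 TPM in tumor and at 32.8 to 37.5 TPM in lung (0.66 ± 0.15, limma adjusted p = 0.016), and its call ended without tumor replicate 2 (limma adjusted p = 0.0618) and after rescaling to the median of ratios, at a difference of 0.48. Ube2n, which encodes the conjugating enzyme of lysine-63 ubiquitin chains, was at 104 and 92.7 TPM in tumor and at 43.9 to 51.1 TPM in lung (1.03 ± 0.15, limma adjusted p = 0.00416).

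Of 14 genes of the noncanonical arm, 8 were called lower and 1 higher, with a median of -1.16. The higher gene, Tnfrsf12a, which encodes the TWEAK receptor Fn14, was at 234 and 159.5 TPM in tumor and at 4.02 to 4.95 TPM in lung (5.12 ± 0.22, limma adjusted p = 0.000901). Birc3, which encodes a cIAP ubiquitin ligase and is a classic NF-kB target, was at 13.1 and 44.6 TPM in tumor and at 477 to 738 TPM in lung (-4.48 ± 0.54, limma adjusted p = 0.00245). Its relative Birc2 fell by 1.6. Tnfrsf13c, the B cell receptor for BAFF, fell by 3.29, in libraries whose 10 B cell markers summed to 4.0 and 23.0 TPM in tumor and to between 346 and 781 TPM in lung.

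Of 19 tested negative regulators of the pathway, 13 were called lower, 2 were called higher and 4 were not called (Tnip1, Tollip, Tank and Traf1), with a median of -1.08. Tnfaip3, the gene of the deubiquitinating enzyme A20, was at 15.9 and 41.9 TPM in tumor and at 155 to 217 TPM in lung (-2.80 ± 0.43, limma adjusted p = 0.0047). Irak3, which encodes an inhibitory kinase-like protein of Toll-like receptor signalling, was at 1.06 and 3.99 TPM in tumor and at 30.6 to 40.6 TPM in lung (-3.56 ± 0.41). Nlrc5 fell by 2.29, N4bp1 by 1.55 and Rnf11, an A20 partner, by 1.10. The higher genes were Tnip3, at 9.51 and 15.8 TPM in tumor and 0.109 to 1.66 TPM in lung (14.5-fold higher by mean TPM), and Commd1, at 102 and 75.2 TPM in tumor and 24.5 to 33.4 TPM in lung (3.02-fold higher). Tnip3 encodes an A20-binding protein, and the product of Commd1 promotes the breakdown of RelA.

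Target genes went both ways. Of 42 tested, 19 were called lower and 10 higher, with a median of -0.78. The chemokine gene Cxcl5 was high in tumor, at 41.7 and 49.3 TPM, and between 0.249 and 0.696 TPM in lung (4.96 ± 0.22, limma adjusted p = 0.000901). Tnfrsf9, which encodes the costimulatory receptor 4-1BB, was at 15.3 and 15.7 TPM in tumor and at 0.285 to 0.782 TPM in lung (3.45 ± 0.23, limma adjusted p = 0.00107). Tnfaip2 was at 79.9 and 133 TPM in tumor and at 917 to 953 TPM in lung (-3.17 ± 0.25, limma adjusted p = 0.00125), and Irf1, a transcription factor gene of interferon and NF-kB responses, at 26.8 and 37.8 TPM in tumor and at 159 to 171 TPM in lung (-2.35 ± 0.19). Among 7 tested genes related to IkB proteins or Rel function, Nfkbil1 was lower (-1.18 ± 0.23), Ankrd42 was higher (0.90 ± 0.29) and 5 were not called, Nfkbib among them. The Nfkbil1 call ended without either tumor replicate (limma adjusted p = 0.0654 and 0.0519), and that of Ankrd42 without any one of the lung replicates (limma adjusted p from 0.0665 to 0.103), with no filter, after rescaling to the median of ratios and with robust moderation (0.0577 to 0.0642). The lists were chosen with earlier results of these data known, so the shares that follow describe the lists and do not test the pathway. Across all 110 tested genes of these lists 54 were lower (49.1%) and 19 higher (17.3%), against 27.0% and 31.6% of all tested genes. Without tumor replicate 2 the lower count was 34 (30.9%) and the higher 15 (13.6%), against 17.7% and 20.3% of all tested genes.

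**Figure D4:**
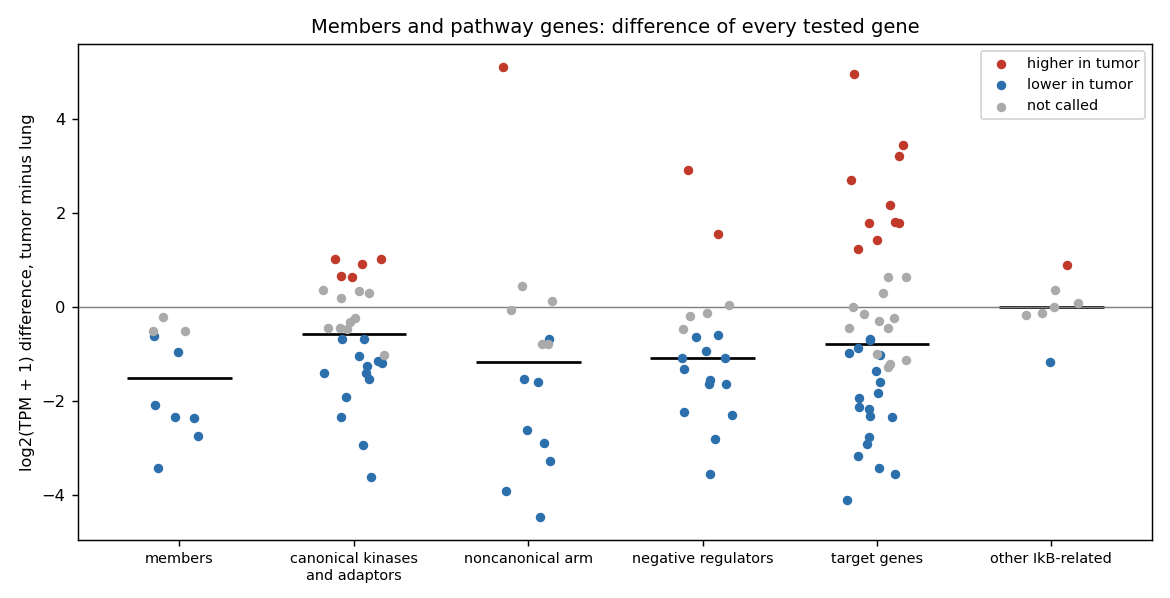
Difference in log2(TPM + 1), tumor minus lung, of every tested gene among the members and 5 pathway lists; each point is a gene, coloured by its call, and black bars are medians. Members reach down to -3.43 with none above 0, while the target genes spread from below -4 to 4.96 and other IkB-related genes centre near 0.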

How the data were processed

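RNA of 5 libraries was compared, 2 from tumor and 3 from lung, grouped by the tissue label with replicate numbers from the titles. Salmon 0.9.1 and the GENCODE mouse M24 transcripts were used by the authors, per the labels' design text, to make the deposited TPM. The deposited table also holds p-values of the authors' own comparison, used only to describe their calls. Of 55276 rows, 26 carried dates for symbols and were left out. TPM is not a count, so no counting error or detection limit was computed, and strand use is not given in the sources used here.

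The test of differences was limma 3.58.1, run in R 4.3.3 (empirical Bayes with intensity trend, two-sided) on log2(TPM + 1) of the 16387 genes whose mean reached 1 TPM, adjusted by Benjamini-Hochberg. Differences are tumor minus lung with the standard error, and that scale understates changes of low genes. The limma fit was tested on simulated data in which a small part of the genes rose in tumor. In the real data 58.6% of tested genes were called, in both directions. The other steps were not simulated. Ratios and shares within libraries used exact permutation tests. No set test was made. Gene coordinates and overlaps come from GENCODE M21 (GRCm38).

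The members and lists were chosen with earlier results of these data known. Named are all members, up to 4 genes of smallest p per pathway list, the gene nearest to each member in profile, and 4 markers, of which Krt8 is left out. Chuk, Ikbkb, Ikbkg, Tnfaip3 and genes that complete short counts were chosen after their values were seen. Alternatives were 2 pseudocounts, 2 filters, 4 scalings, 3 other fits, 2 fold limits, a replicate block and leaving out each library.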

Additional observations from a re-analysis of the deposited data

How the results depend on the processing

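Centring on the pan-leukocyte genes reversed the sign of every member's difference, but Nfkbid, Rel and Nfkbiz were then not called. Differences were 2.92 for Nfkb1, 3.22 for Nfkb2, 0.68 for Rel, 2.93 for Rela, 2.82 for Relb, 1.11 for Nfkbia, 2.48 for Nfkbie, 0.0061 for Nfkbid, 1.07 for Nfkbiz and 1.36 for Bcl3. Called members numbered 0 lower and 7 higher, and pathway genes 0 lower and 90 higher (81.8%), where 85.8% of all tested genes were called higher. Also reversed there were Nfkbil1 (2.26), Nfkbib (3.31), Irak4 (1.10), Rnf31 (1.53), Myd88 (0.51), Tnfrsf13c (0.15), Birc2 (1.84), Nlrc5 (1.14), N4bp1 (1.89), Rnf11 (2.34), Tnfaip2 (0.27), Irf1 (1.09), Chuk (2.96), Ikbkb (3.20), Ikbkg (3.11) and Tnfaip3 (0.64). Nfkbib was at 0.0016 with mitochondrial genes removed. Rescaling to the median of ratios moved the median of all genes to -0.12 and removing mitochondrial genes moved it to 0.13.

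In the other settings 5 to 9 members were lower and 0 higher. Rel, Nfkbia, Nfkbid, Nfkbiz and Bcl3 passed in all of them, with adjusted p up to 0.0341. Leaving out single libraries gave 6 to 8 lower members, 34 to 49 lower and 14 to 16 higher pathway genes. The shares of all tested genes called also moved between settings and are not printed here for each. These ranges therefore do not set the members or pathway genes apart from all genes. Leaving out single libraries moved the classical ratio difference between -2.17 and -1.26 and the nuclear one between -2.27 and -1.43. Nfkb1 share differences lay between -0.37 (without lung replicate 2) and 1.50 percentage points and were -0.34 without tumor replicate 3. Relb share differences lay between -0.81 and 0.0095 (without tumor replicate 3).

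The title number was used as a replicate block although nothing in the labels pairs the libraries. Same-numbered libraries deviated together with correlations across genes of 0.0034 and 0.083. With the block, in which lung library 1 adds nothing, 5 members were lower, Relb (adjusted p = 0.166) and Nfkbie (adjusted p = 0.0575) no longer passing, and 9 pathway genes were higher. The share of all genes called with the block is not printed here, and the cause of the change was not tested. Read counts of single genes are unknown, so it is not known how far depth limits the lowest members, Rel and Nfkbid in tumor.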

Other observations

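The tested gene whose centred log2(TPM + 1) profile over the 5 libraries lay nearest to each member was found by Euclidean distance, in log2 units. For the strongly falling members it was Cd69 for Rel (0.119), Chd7 for Nfkbia (0.0582), Pnpla7 for Nfkbid (0.0849), Cmtm6 for Nfkbiz (0.124) and Sh3tc1 for Bcl3 (0.109). For the others it was Pla2g15 for Nfkb1 (0.0408), Dlst for Nfkb2 (0.0764), Fam117b for Rela (0.0704), Rxrb for Relb (0.0692) and the predicted gene Gm10791 for Nfkbie (0.0474). Gm10791 was low, at 0.433 and 0.494 TPM in tumor and 1.68 to 2.21 TPM in lung, where this scale understates changes. Its mean was 4.12-fold lower in tumor, against 2.08-fold for Nfkbie. Profiles over 5 libraries in 2 tissues leave many genes close to any member, so the names describe these libraries only.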
